A study of Mus musculus with 36 samples.

Results

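The 34 genes described here encode proteins of mitosis, the stage of the cell cycle in which the duplicated chromosomes are separated into daughter nuclei. They were chosen by name out of 54203 genes to which the deposited transcript counts were summed. No threshold on a measured value was used, but earlier results of these data were known. The libraries numbered 36, each made from 2000 plasma cells of C57/BL6 mouse bone marrow that were sorted as positive for a reporter and for the surface proteins CD138 and TACI. Plasma cells arise from activated B cells and secrete antibody. Cohort D held Ccnd1-Ikk2ca (6 libraries), Ikk2ca(D), Ccnd1 and Control(D) (4 libraries each). Cohort M held MMSET-Ikk2ca (6 libraries), Ikk2ca(M), MMSET and Control(M) (4 libraries each). Ccnd1 stands for cyclin D1, MMSET for the histone methyltransferase encoded by mouse Nsd2, and Ikk2ca for the NF-kB activating kinase IKK2, encoded by Ikbkb. Ages, the promoter or Cre line of the transgenes and the animal behind each library are not given in the sources used here. The p-values therefore speak only of variation among the libraries at hand, which may be technical. The design addresses how each transgene, alone and paired, changed plasma cell expression.

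Entry into mitosis is driven by the kinase Cdk1 bound to cyclins A and B, with the kinases Plk1, Aurora A and Aurora B acting on the spindle and the chromosomes. The spindle checkpoint holds the anaphase-promoting complex in check until every kinetochore is attached, and Cdc20 then turns that complex on, so that securin (Pttg1) and cyclin B are destroyed. Most of these genes are switched on together in G2 and M phase and kept off in resting cells. Plasmablasts still divide, whereas mature plasma cells are known as resting cells, so that mitosis transcripts are low in them.

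The shared timing of these genes is known to rest on short promoter elements, the cell cycle genes homology region (CHR) and CCAAT boxes. RefSeq promoters (GRCm38.p6, 250 bases before to 50 after the start, 300 in all) were found for 30 members, 1 of them (Prc1) with 2 promoters, and not for Ccna2, Aurkb, Kif20a and Tpx2. The CHR letters TTTGAA stood in either orientation in 23 of these 31 promoters (74.2%), against 17.9% of the 32851 promoters of the table. The letters CCAAT stood in either orientation in 24 of 31 (77.4%), against 37.4% of all promoters. Both stood in 21 of 31 (67.7%), against 6.95%. Neither was in the windows of Pttg1, Birc5, Mad2l1, Nuf2 and Nusap1. A match of letters is a description of the sequence and not a measured site. The promoters of 6 members are given from 5′ to 3′ on the strand of the gene, with capitals on each match to TTTGAA or CCAAT or their reverse complements, which do not overlap one another. The first 4 belong to members that had no read in a library described further on, MMSET-Ikk2ca 4, and the last 2 to the members with the least spread between libraries. Of the promoters of all 8 members without a read there, 62.5% held the CHR letters, 75% the letters CCAAT and 50% both. A relation between these letters and the missing reads was not tested.
Top2a (chr11:99024140-99024439, minus strand): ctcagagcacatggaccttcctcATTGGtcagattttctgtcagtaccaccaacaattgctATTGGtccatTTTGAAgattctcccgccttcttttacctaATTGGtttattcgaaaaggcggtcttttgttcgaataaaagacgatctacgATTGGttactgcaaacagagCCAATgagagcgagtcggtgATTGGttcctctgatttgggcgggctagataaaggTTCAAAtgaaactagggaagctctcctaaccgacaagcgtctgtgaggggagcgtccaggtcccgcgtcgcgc
Ccnb1 (chr13:100786437-100786736, minus strand): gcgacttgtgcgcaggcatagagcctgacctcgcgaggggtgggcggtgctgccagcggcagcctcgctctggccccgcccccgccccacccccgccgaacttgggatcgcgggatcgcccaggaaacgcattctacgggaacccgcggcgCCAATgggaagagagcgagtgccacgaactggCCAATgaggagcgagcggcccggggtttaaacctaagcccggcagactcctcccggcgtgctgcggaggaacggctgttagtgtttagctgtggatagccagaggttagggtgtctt
Kif11 (chr19:37376132-37376431, plus strand): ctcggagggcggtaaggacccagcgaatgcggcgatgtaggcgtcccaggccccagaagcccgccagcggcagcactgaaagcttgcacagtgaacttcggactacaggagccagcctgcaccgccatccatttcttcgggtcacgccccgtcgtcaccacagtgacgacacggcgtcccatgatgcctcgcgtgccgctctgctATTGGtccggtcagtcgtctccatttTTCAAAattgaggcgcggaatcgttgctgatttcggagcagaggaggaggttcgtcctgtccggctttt
Plk1 (chr7:122159185-122159484, plus strand): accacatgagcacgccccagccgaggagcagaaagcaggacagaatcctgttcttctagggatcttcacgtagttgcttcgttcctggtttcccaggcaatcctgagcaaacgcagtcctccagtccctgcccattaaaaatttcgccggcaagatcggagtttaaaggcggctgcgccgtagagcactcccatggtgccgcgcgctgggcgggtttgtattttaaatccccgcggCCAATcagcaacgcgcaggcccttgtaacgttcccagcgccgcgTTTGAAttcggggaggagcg
Bub1b (chr2:118597961-118598260, plus strand): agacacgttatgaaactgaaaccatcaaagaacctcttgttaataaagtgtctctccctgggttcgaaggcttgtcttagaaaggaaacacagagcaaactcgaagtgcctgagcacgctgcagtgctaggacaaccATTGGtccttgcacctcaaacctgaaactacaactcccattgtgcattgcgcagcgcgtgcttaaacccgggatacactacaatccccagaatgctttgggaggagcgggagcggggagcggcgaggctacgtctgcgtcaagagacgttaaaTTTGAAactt
Pttg1 (chr11:43425932-43426231, minus strand): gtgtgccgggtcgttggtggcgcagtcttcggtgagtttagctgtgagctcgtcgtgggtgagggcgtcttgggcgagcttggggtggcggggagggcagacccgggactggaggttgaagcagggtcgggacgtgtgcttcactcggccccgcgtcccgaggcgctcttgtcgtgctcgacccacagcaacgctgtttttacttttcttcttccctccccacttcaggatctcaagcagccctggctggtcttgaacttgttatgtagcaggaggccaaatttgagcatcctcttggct

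Top2a held 6 CCAAT and 2 CHR matches, the CHR match closest to its start beginning at base -23. Kif11 and Plk1 each held 1 of both, and the CHR match of Plk1 lay behind the start, at base 31. Ccnb1 held 2 CCAAT matches and no CHR match. Bub1b held 1 of both, with its CHR match at base 41, and Pttg1 held none.

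Depth ran from 54.1 to 97.6 M estimated reads, with 43.9% to 73.0% of them on immunoglobulin genes. Genes reaching 10 reads numbered 12297 to 14045 in a library. Levels below are in CPM, reads per M reads after each library total was multiplied by a TMM normalisation factor, so they are not plain shares of the reads. The factors ran from 0.741 in Ikk2ca(D) 1 to 1.62 in MMSET-Ikk2ca 6, whose members held 412 of each M reads before the factor and 254.8 CPM after it. MMSET 3 had the highest and MMSET-Ikk2ca 4 the lowest summed member level of all 36 libraries both with the factors (655 and 56.2 CPM) and without them (575 and 59.5 of each M reads). Ccnd1 lay at 257.8 to 983 CPM in the groups that carry it and at most 3.55 CPM elsewhere, Nsd2 at 174.3 to 824 CPM in the MMSET groups and at most 9.96 CPM elsewhere. Ikbkb lay at 42.1 to 83.4 CPM in the Ikk2ca groups and at 10.7 to 39.0 CPM in the others. All 9 plasma cell markers were detected in every group, with a summed level of at least 4687 CPM in every library, led by Jchain. B cell markers summed to 165 to 684 CPM, led by Cd79b. Plasma cell markers fell for 4 of 9 and B cell markers for 3 of 8 in Ccnd1-Ikk2ca against Control(D), where 11.1% of all genes passed in either direction, and for 4 of 9 and 4 of 7 tested in MMSET-Ikk2ca against Control(M), where 6.91% did. Of other cells in marrow, erythroid markers summed to at most 14.95 CPM in any library, with Rhag at 0 in all 8 groups, and 1 of 3 tested, Slc4a1, rose in MMSET-Ikk2ca against Control(M). Neutrophil and granulocyte precursor markers were led by S100a8 in every group. In cohort D they summed to 1.11 to 218 CPM in Ccnd1-Ikk2ca, 47.8 to 492 CPM in Ikk2ca(D) and 396 to 1535 CPM in Ccnd1, against 43.9 to 535 CPM in Control(D). In cohort M they summed to 0.774 to 12.8 CPM in MMSET-Ikk2ca, 4.58 to 443 CPM in Ikk2ca(M) and 43.8 to 2682 CPM in MMSET, against 40.9 to 199 CPM in Control(M). Of these markers 2 of 10 fell in Ccnd1-Ikk2ca against Control(D) and 2 of 10 against Ccnd1, where 6.2% of all genes passed, and 2 of 8 tested fell in MMSET-Ikk2ca against Control(M) and 4 of 8 against MMSET, where 1.58% passed. Ctsg was at 0 in both groups that carry 2 transgenes. Monocyte and macrophage markers, led by Ly6c2 in every group, summed to 3776 to 7534 CPM in Ccnd1-Ikk2ca, against 615 to 956 CPM in Control(D). They summed to 4887 to 10228 CPM in MMSET-Ikk2ca, against 1664 to 3637 CPM in Control(M). Groups with 1 transgene held 330 to 9496 CPM. In both groups with 2 transgenes the sum was largely the level of Ly6c2. It averaged 4856 CPM in Ccnd1-Ikk2ca against 694.6 CPM in Control(D), and 8959 CPM in MMSET-Ikk2ca against 2354 CPM in Control(M). Of 7 tested, Ly6c2 rose in both groups with 2 transgenes against their controls. The median log2 fold change of the 7 was negative, at -1.79 in Ccnd1-Ikk2ca and -1.004 in MMSET-Ikk2ca. Adgre1 fell in Ccnd1-Ikk2ca and Lyz2 in MMSET-Ikk2ca, beside the same 11.1% and 6.91% of all genes. B cell precursor markers fell for 3 of 4 tested in Ccnd1-Ikk2ca and 1 of 4 in MMSET-Ikk2ca against their controls, and Kit, a stem and progenitor marker, rose in MMSET against Control(M), where 0.649% of all genes passed, and in MMSET-Ikk2ca against Ikk2ca(M), where 0.96% did. T and NK cell markers summed to at most 14.4 CPM in any library. Of 6 tested, Cd3g fell in Ccnd1-Ikk2ca against Control(D) and against Ccnd1, beside 11.1% and 6.2% of all genes. The part of all these cells in the results was not tested. Xist exceeded 10 CPM in 3 of 6 Ccnd1-Ikk2ca, 4 of 4 Ikk2ca(D), 2 of 4 Ccnd1 and 1 of 4 Control(D) libraries. In cohort M it did so in 3 of 6 MMSET-Ikk2ca, 4 of 4 Ikk2ca(M), 3 of 4 MMSET and 2 of 4 Control(M) libraries. The groups thus differed in their share of Xist-positive libraries, and the part of this in the results was not tested.

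Mitosis genes were low in all groups. Per length, the mean over 36 libraries ran from 10.7 TPM (a length-corrected share of transcripts) for Pttg1, the securin that holds back anaphase, to 0.0788 TPM for Cenpe, a kinesin of the kinetochore. After Pttg1 came the ubiquitin-conjugating enzyme Ube2c at 4.45, Cdk1 at 3.63, Cdc20 at 3.34, Birc5 at 3.13 and Bub1b at 2.52 TPM. Of the 1224 values (34 genes in 36 libraries), 39 were 0 reads and 52 were 3 reads or fewer. A count of 0 allows up to 3 reads, or 0.0298 to 0.0676 CPM across the libraries, for counting error only. A set of 13 members had at least 10 reads in every library, and 15 had 0 reads in at least 1 library. Bub1 had 0 reads in 8 libraries, Kif2c in 7 and Ttk in 5. The spread between libraries of the same group also differed among the members. Its SD on the log2(CPM + 0.5) scale was 0.36 for Pttg1 and 0.54 for Bub1b, a checkpoint kinase-like protein, against 1.34 for Bub1 and 1.27 for Kif11.

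**Figure D1:**
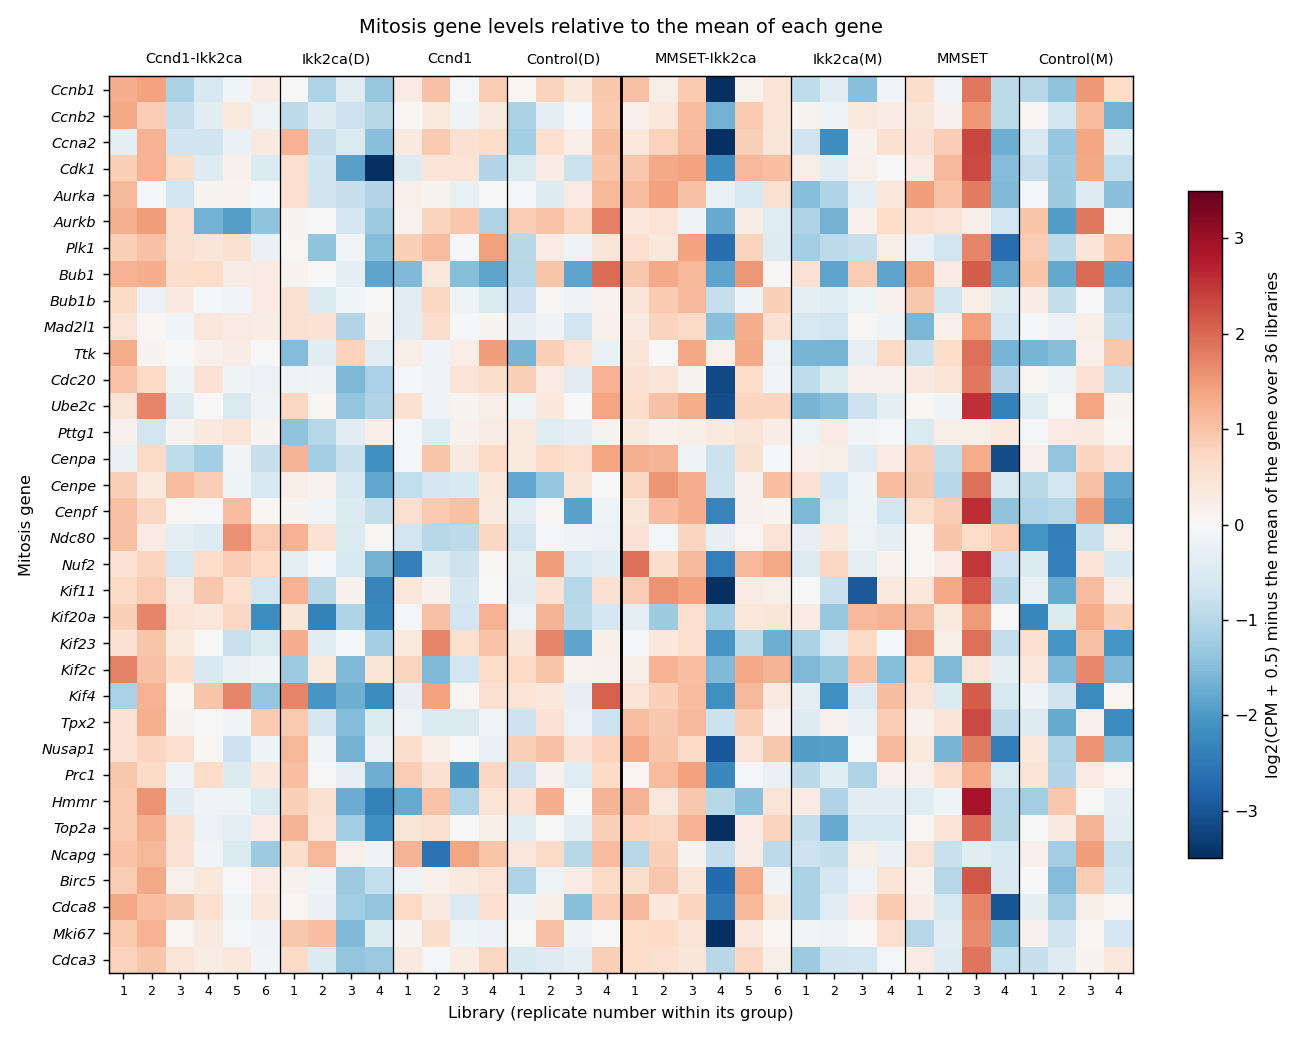
Level of each mitosis gene (rows) in each library (columns, numbered within its group), as log2(CPM + 0.5) minus the mean of that gene over 36 libraries; colours end at -3.5 and 3.5. The columns of MMSET 3 (red) and MMSET-Ikk2ca 4 (blue) stand out within their groups, and Pttg1 is pale in nearly every column.

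A pair of libraries stood apart before any comparison of groups. MMSET 3 had the highest value of all 36 libraries for 25 of 34 members and exceeded the other 3 MMSET libraries for 28, with a median ratio of 4.29 to their median. Its Mki67, the proliferation marker Ki-67, was 63.4 CPM, against 9.52, 14.95 and 6.71 in the other 3, and its Top2a, the topoisomerase that untangles sister chromatids, was 55.3, against 13.8, 18.7 and 6.60. The exceptions were Aurkb, Bub1b, Pttg1, Ndc80, Kif2c and Ncapg, which lay within the range of the other 3. Its 36 DNA replication genes summed to 688 CPM, against 339.8, 382 and 295 in the other 3, and its depth was 70.1 M reads, against 64.6, 54.1 and 66.4 M. Its plasma cell markers summed to 7196 CPM, against 24221, 12288 and 14332, its B cell markers to 165 CPM, against 176, 178 and 286, and its erythroid markers to 2.05 CPM, against 0.0165, 0.743 and 1.17. Its neutrophil and granulocyte precursor markers summed to 78.2 CPM, against 2682, 168 and 43.8 CPM. The part of these marker levels in the mitosis values was not tested.

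MMSET-Ikk2ca 4 was the opposite case. It had 0 reads for 8 members (Ccnb1, Plk1, Bub1, Nuf2, Kif11, Kif23, Kif2c and Top2a) and 3 reads or fewer for 11, in a library of 64.8 M reads, where 3 reads are 0.0438 CPM. It lay below all other 5 MMSET-Ikk2ca libraries for 28 members and under 10% of their median for 18. Top2a was at 0 against 16.7 to 31.8 CPM in the other 5, Ccnb1 at 0 against 7.33 to 14.0, and Mki67 at 0.963 against 20.5 to 32.1. The 6 members within the range of the other 5 were Pttg1, Aurka, Ttk, Kif20a, Hmmr and Ncapg. Pttg1 stood at 19.0 CPM (1300 reads) beside a median of 17.98 in the other 5, and Bub1b at 11.5 CPM (790 reads) beside 36.6. The library carried both transgene signals, with Nsd2 at 459.8 CPM and Ikbkb at 43.7 CPM, and its cyclin D2 (Ccnd2), which acts in G1, was at 683 CPM, above the 328.7 to 620.3 CPM of the other 5. Genes with at least 10 reads numbered 12657, against 13437 to 14045 in the other 5, and 6 of its marker sums lay outside their range. B cell markers summed to 297 CPM, against 184 to 267 CPM, B cell precursor markers to 56.8 CPM, against 10.9 to 47.1 CPM, and monocyte and macrophage markers to 4887 CPM, against 9051 to 10228 CPM. That last sum is largely the level of 1 gene, Ly6c2, which averaged 8959 CPM in MMSET-Ikk2ca, where the median sum was 9852 CPM. Plasma cell markers summed to 4687 CPM, against 4710 to 6697 CPM, neutrophil and granulocyte precursor markers to 0.774 CPM, against 1.26 to 12.8 CPM, and erythroid markers to 0, against 2.82 to 11.8 CPM. The part of these values in the mitosis levels was not tested.

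**Figure D2:**
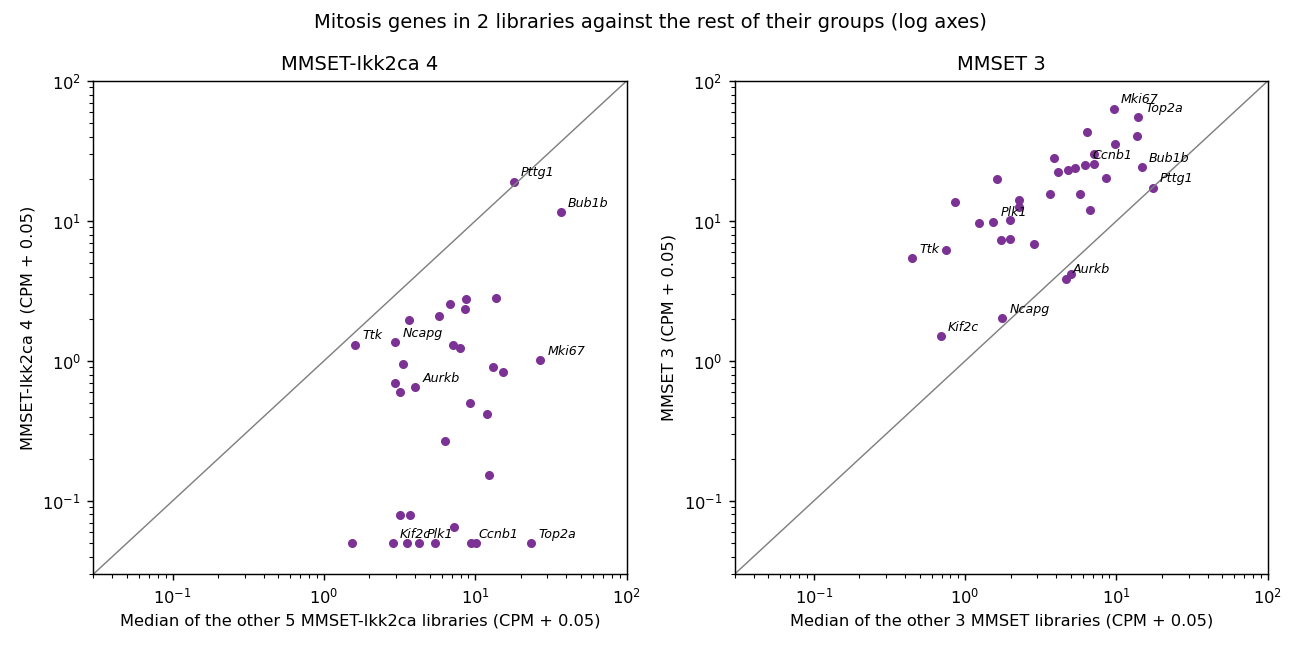
Each point is 1 mitosis gene: its level in MMSET-Ikk2ca 4 (left) or MMSET 3 (right) on the y axis and the median of the other libraries of that group on the x axis, in CPM + 0.05 on log axes; the line marks equal values. On the left the 8 genes without reads lie along the bottom and Pttg1 lies on the line, and on the right most genes lie above it.

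Summed over the 34 members, the level varied widely within groups. Ccnd1-Ikk2ca libraries lay at 194.7 to 365 CPM with a median of 209.5, Ikk2ca(D) at 295, 183, 107 and 105, Ccnd1 at 209, 261, 195 and 237, and Control(D) at 172, 256, 164 and 316. The 4 groups of cohort D overlapped, and Ikk2ca(D) held both its lowest libraries and 1 of its higher ones. MMSET-Ikk2ca libraries lay at 56.2 to 362 CPM with a median of 296, Ikk2ca(M) at 129.6, 128, 168 and 225, MMSET at 234, 215, 655 and 100.96, and Control(M) at 184, 119, 332 and 148. Apart from MMSET-Ikk2ca 4, the other 5 MMSET-Ikk2ca libraries lay above all 4 Ikk2ca(M) libraries. MMSET averaged 301 ± 243 CPM (SD, n = 4) and Control(M) 195.5 ± 94.6 CPM (SD, n = 4), the difference resting on MMSET 3. Summed as TPM the order of the libraries differed: MMSET-Ikk2ca 6 was highest at 116 TPM, before MMSET 3 at 101.7 TPM, and MMSET 4 (19.8), Ikk2ca(D) 3 (19.85) and MMSET-Ikk2ca 4 (20.2 TPM) lay lowest. In bulk RNA, fewer dividing cells and less mitosis RNA per cell cannot be told apart. A small number of members carried much of the sum: Mki67 10.1%, Bub1b 9.52%, Top2a 7.45% and Pttg1 6.75% on average.

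**Figure D3:**
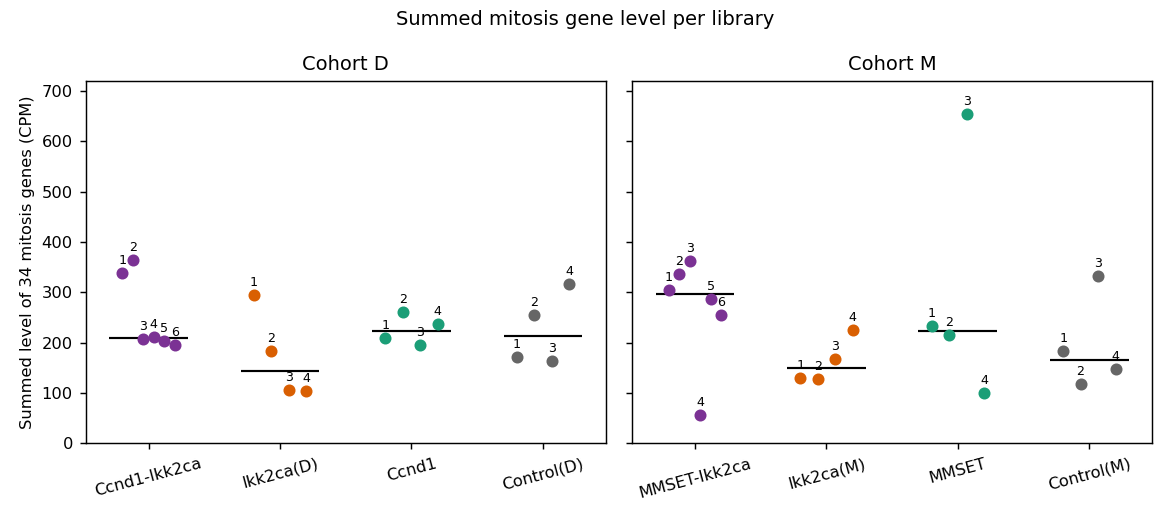
Summed level of the 34 mitosis genes in CPM (y axis) for every library (points, with replicate numbers) of the 8 groups, cohort D on the left and cohort M on the right; bars are group medians. MMSET 3 lies at 655 CPM and MMSET-Ikk2ca 4 at 56.2 CPM, and the groups overlap in both cohorts.

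In cohort D none of the 34 members passed edgeR's test in any comparison of groups with all libraries. With edgeR's quasi-likelihood test and Benjamini-Hochberg adjustment over 15323 genes, all 34 members were tested and 0 passed an adjusted p of 0.05 in Ccnd1 against Control(D), where 0.00653% of all genes passed. The count was also 0 in Ikk2ca(D) against Control(D) (0.437% of all genes), Ccnd1-Ikk2ca against Control(D) (11.1%), Ccnd1-Ikk2ca against Ikk2ca(D) (0.424%) and Ccnd1-Ikk2ca against Ccnd1 (6.2%). At an unadjusted p of 0.05 the counts were 1 (6.29% of all genes), 3 (13.3%), 1 (25.2%), 8 (11.3%) and 0 (21.4%) in that order. DESeq2 called 1 member, Cdc20, in Ikk2ca(D) against Control(D), where it called 3.69% of all genes, and 0 in the other 4 comparisons, where it called 0.63%, 16.6%, 2.67% and 12% of all genes; at an unadjusted p of 0.05 its counts were 1 (6.85%), 3 (14.3%), 3 (27.2%), 9 (12.4%) and 1 (23.1%).

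Ikk2ca(D) had values below Control(D) for 24 of 34 members, with a median log2 fold change of -0.62 beside 0.01 over all genes. Here and below, the members are measured in the same libraries, so a count of members is not a count of replicates. Cdc20, the activator of the anaphase-promoting complex, had the smallest p, with a log2 fold change of -1.299 (SE 0.398, adjusted p = 0.156), and the DESeq2 adjusted p was 0.0458. Cyclin B1 (Ccnb1) had -1.29 (SE 0.501, adjusted p = 0.264) and Aurora B (Aurkb) -1.68 (SE 0.801, adjusted p = 0.374). These last 2 were the members whose Ikk2ca(D) and Control(D) libraries did not overlap, against 3.48% of all genes lower without overlap. Without Ikk2ca(D) 1, the library with the highest sum of its group, the median was -1.10. There 1 member, the chromokinesin Kif4, passed (log2 fold change -5.38, adjusted p = 0.0465), where 0.667% of all genes passed. Kif4 had 363 reads in Ikk2ca(D) 1 and 6, 12 and 1 in the others of that group. Leaving out the highest library lowers the group by construction, so this call and this median are not independent evidence.

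Ccnd1-Ikk2ca had values above Ikk2ca(D) for 32 of 34 members, with a median log2 fold change of 0.76 beside 0.02 over all genes. The groups overlapped in summed level: Ikk2ca(D) lay at 295, 183, 107 and 105 CPM, and Ccnd1-Ikk2ca at 194.7 to 365 CPM. The 8 members under an unadjusted p of 0.05 were Cdca8, Cdc20, Birc5, Ccnb2, Plk1, Ccnb1, Cdca3 and Pttg1, all higher, where 4.44% of all genes were higher at that threshold. Borealin (Cdca8), a subunit of the chromosomal passenger complex, had the smallest p, with 1.51 (SE 0.513, adjusted p = 0.231); it overlaps 9930104L06Rik on the opposite strand, so its reads are uncertain. Bub1 was the 1 member without overlap between these groups, higher, against 1.46% of all genes. Against Control(D) the median in Ccnd1-Ikk2ca was 0.29, and Cenpf had the smallest p, with 1.22 (SE 0.539, adjusted p = 0.158). Ccnd1 against Control(D) had a median of 0.04, with values above Control(D) for 19 of 34 members; Cenpf was the 1 member without overlap, higher, against 1.62% of all genes. Ccnd1-Ikk2ca against Ccnd1 had a median of 0.16.

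**Figure D4:**
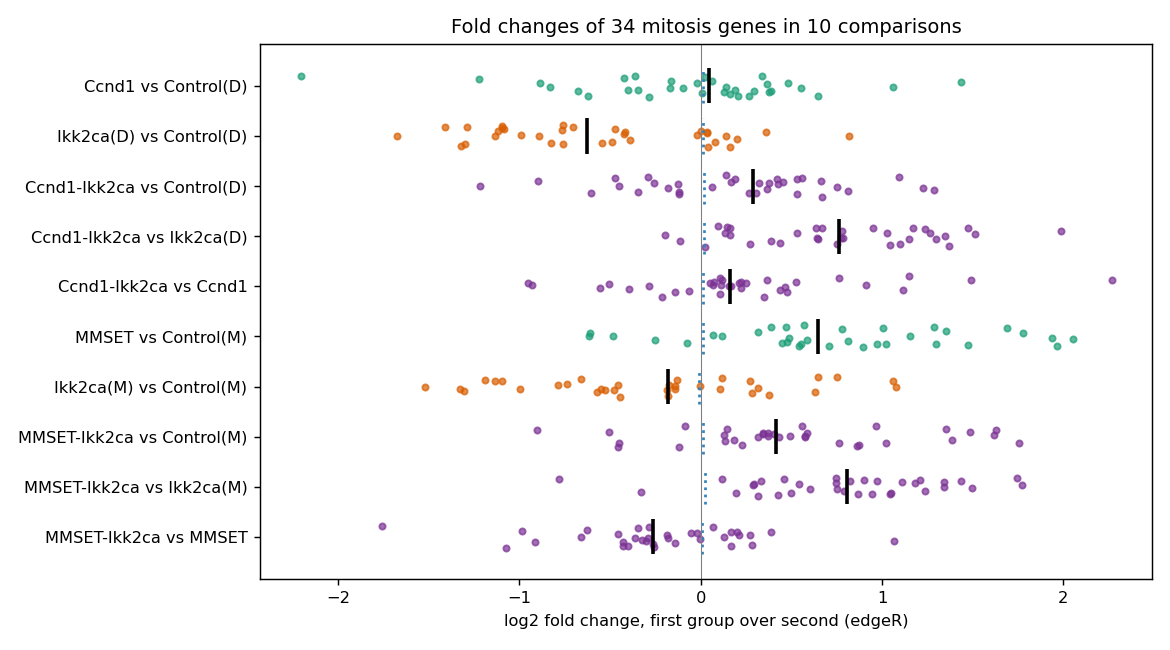
Log2 fold change (edgeR, first group over second) of each of the 34 mitosis genes (points) in 10 comparisons; black bars are the medians of the members and dotted blue bars the medians of all genes tested. The members' medians run from -0.62 in Ikk2ca(D) against Control(D) to 0.81 in MMSET-Ikk2ca against Ikk2ca(M), and no point passed an adjusted p of 0.05.

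In cohort M the count was again 0 of 34 in each comparison, over 15416 genes. The share of all genes that passed was 0.649% in MMSET against Control(M), 0.649% in Ikk2ca(M) against Control(M), 6.91% in MMSET-Ikk2ca against Control(M), 0.96% in MMSET-Ikk2ca against Ikk2ca(M) and 1.58% in MMSET-Ikk2ca against MMSET. At an unadjusted p of 0.05 the members counted 3 (13.3% of all genes), 0 (12.4%), 3 (21.8%), 0 (12.5%) and 0 (13.4%) in that order. DESeq2 called 0 members in all 5, where it called 4.16%, 3.41%, 12.8%, 4.53% and 5.13% of all genes, and its counts at an unadjusted p of 0.05 were 3 (14.6%), 0 (13.6%), 4 (23.3%), 3 (14%) and 0 (14.8%).

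MMSET had values above Control(M) for 29 of 34 members, with a median log2 fold change of 0.65 beside 0.01 over all genes. Aurora A (Aurka), which acts at the spindle poles, had 2.06 (SE 0.732, adjusted p = 0.228), its activator Tpx2 1.96 (SE 0.723, adjusted p = 0.242) and the outer kinetochore subunit Ndc80 1.94 (SE 0.801, adjusted p = 0.297). Without MMSET 3 alone, Tpx2 had 0.89 (SE 0.660, adjusted p = 0.692), Aurka 1.70 (SE 0.769, adjusted p = 0.409) and Ndc80 1.98 (SE 0.864, adjusted p = 0.397). Without MMSET 3 and MMSET-Ikk2ca 4 the median was -0.13 and 0 members passed, where 0.436% of all genes passed. MMSET-Ikk2ca had values above Control(M) for 28 members with a median of 0.42, or 0.66 without the 2 libraries (0 members, 7.8% of all genes). Here Tpx2 had 1.62 (SE 0.675, adjusted p = 0.159), Aurka 1.63 (SE 0.682, adjusted p = 0.160) and Bub1b 0.86 (SE 0.380, adjusted p = 0.186). Ikk2ca(M) had values below Control(M) for 23 members with a median of -0.18, or -0.17 without the 2 libraries (0 members, 0.891% of all genes), and Top2a was the 1 member without overlap, lower, against 3.6% of all genes.

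MMSET-Ikk2ca stood above Ikk2ca(M) for 32 of 34 members, with a median log2 fold change of 0.81 beside 0.02 over all genes. With all libraries Top2a had 1.44 (SE 0.971, adjusted p = 0.652). Without MMSET 3 and MMSET-Ikk2ca 4 Top2a passed, with 1.70 (SE 0.372, adjusted p = 0.0253), the median was 1.03, and 1 of 34 members was called, where 1.86% of all genes were. MMSET-Ikk2ca against MMSET turned with the same 2 libraries: the median was -0.26 with them and 0.85 without. Mki67 had -0.05 (SE 0.684, adjusted p = 0.996) with them and 1.39 (SE 0.295, adjusted p = 0.0188) without, as the 1 member called where 2.91% of all genes were. These libraries were left out because of their mitosis levels. Both calls, and all medians given without these libraries, therefore describe the remaining libraries and are not independent evidence.

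The differences between effects were tested in the same way. The interaction of Ccnd1 and Ikk2ca asks whether the log2 effect of the pair differs from the sum of the log2 effects of both transgenes. For it 0 of 34 members passed, where 0.0261% of all genes passed. The median was 0.85, with Cdc20 at 1.40 (SE 0.536, adjusted p = 0.668). For MMSET and Ikk2ca 0 passed, where 0.0973% of all genes passed, and the median was 0.05, or 1.05 without MMSET 3 and MMSET-Ikk2ca 4 (0 members, 0.199% of all genes). In the fit of all 36 libraries, the effect of MMSET-Ikk2ca over Control(M) minus that of Ccnd1-Ikk2ca over Control(D) passed for 0 members, where 0.175% of 17116 genes passed, with a median of 0.19, or 0.45 without those 2 libraries (0 members, 0.264% of all genes), and Aurka at 1.81 (SE 0.823, adjusted p = 0.400). Leaving out those 2 libraries, picked for their mitosis levels, raises the last 2 medians by construction, so 1.05 and 0.45 are not independent evidence. At an unadjusted p of 0.05 these 3 contrasts held 1 member (6.86% of all genes), 0 (10.4%) and 1 (11.2%). DESeq2 called 0 in each, where it called 0.755%, 2.48% and 3.07% of all genes, and at an unadjusted p of 0.05 it held 2 (7.56%), 0 (11.5%) and 1 (11.7%).

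The counts of 0 do not show that the members were alike between groups. The 95% interval of the log2 fold change lay within 2-fold in either direction for 1 to 4 of 34 members and within 4-fold for 4 to 21, depending on the comparison. For Pttg1, with the least spread between libraries, in MMSET-Ikk2ca against Control(M) it ran from -0.23 to 0.50, and for Bub1b in Ccnd1-Ikk2ca against Control(D) from -0.23 to 0.87. For Top2a in MMSET-Ikk2ca against Control(M) it ran from -1.84 to 2.10.

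Among the cyclins and Cdk1, cyclin B1 (Ccnb1; chromosome 13, 100778650 to 100786570, minus strand, GRCm38) activates Cdk1 at mitotic entry. In cohort D, Ccnb1 lay at 2.82 to 18.5 CPM with a median of 7.07 in Ccnd1-Ikk2ca, 6.75, 2.86, 4.90 and 2.36 in Ikk2ca(D), 8.28, 14.0, 6.51 and 12.6 in Ccnd1 and 7.06, 11.9, 8.69 and 13.4 in Control(D). In cohort M, Ccnb1 lay at 0 to 14.0 CPM with a median of 8.61 in MMSET-Ikk2ca, 3.35, 4.99, 2.10 and 6.16 in Ikk2ca(M), 10.4, 6.15, 25.2 and 3.30 in MMSET and 3.18, 2.19, 20.1 and 10.7 in Control(M). All 4 Ikk2ca(D) libraries lay below all 4 Control(D) libraries, while the Ccnd1-Ikk2ca libraries spanned both. Control(M) 3 was the highest of its group. Cdk1 itself (chromosome 10, 69335146 to 69352938, minus strand) is the kinase that sets off mitosis. In cohort D, Cdk1 lay at 3.95 to 13.9 CPM with a median of 7.67 in Ccnd1-Ikk2ca, 8.59, 3.28, 1.17 and 0 in Ikk2ca(D), 3.99, 8.02, 8.18 and 2.55 in Ccnd1 and 3.85, 6.96, 3.18 and 11.7 in Control(D). In cohort M, Cdk1 lay at 0.861 to 15.8 CPM with a median of 12.8 in MMSET-Ikk2ca, 6.80, 4.23, 6.52 and 5.80 in Ikk2ca(M), 7.09, 13.1, 30.1 and 1.65 in MMSET and 3.04, 2.04, 15.3 and 2.90 in Control(M). Ikk2ca(D) 4 had 0 reads, Control(M) 3 stood at several times the level of the other Control(M) libraries, and 5 of 6 MMSET-Ikk2ca libraries lay between 11.4 and 15.8 CPM. The S and G2 cyclin Ccna2 (chromosome 3, 36564865 to 36572150, minus strand) overlaps Exosc9 on the opposite strand, so its reads are uncertain. In cohort D, Ccna2 lay at 3.93 to 16.2 CPM with a median of 5.42 in Ccnd1-Ikk2ca, 16.2, 3.58, 4.62 and 2.10 in Ikk2ca(D), 8.52, 13.0, 9.88 and 10.7 in Ccnd1 and 2.66, 10.4, 7.96 and 14.3 in Control(D). In cohort M, Ccna2 lay at 0.102 to 15.2 CPM with a median of 10.7 in MMSET-Ikk2ca, 3.91, 1.08, 7.44 and 9.99 in Ikk2ca(M), 9.69, 12.6, 35.6 and 1.71 in MMSET and 4.50, 2.32, 18.4 and 5.07 in Control(M). MMSET 3 was the highest library at 35.6 CPM and MMSET-Ikk2ca 4 the lowest at 0.102 CPM. Cyclin B2 (Ccnb2) ran from 1.25 CPM in Control(M) 4 to 15.5 CPM in MMSET 3.

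Among the kinases, Plk1 (chromosome 7, 122159439 to 122169873, plus strand) matures the centrosomes and drives mitotic entry and exit. In cohort D, Plk1 lay at 2.18 to 5.86 CPM with a median of 4.08 in Ccnd1-Ikk2ca, 2.73, 0.684, 2.45 and 0.616 in Ikk2ca(D), 5.09, 6.17, 2.49 and 8.005 in Ccnd1 and 1.11, 3.35, 2.37 and 3.68 in Control(D). In cohort M, Plk1 lay at 0 to 7.90 CPM with a median of 3.90 in MMSET-Ikk2ca, 0.890, 1.17, 1.303 and 3.09 in Ikk2ca(M), 2.18, 1.49, 9.86 and 0 in MMSET and 5.32, 1.18, 3.83 and 5.77 in Control(M). The 0 values were those of MMSET 4 and MMSET-Ikk2ca 4, which had 0 reads for 5 and 8 members. The highest value of the 36 libraries, 9.86 CPM, was that of MMSET 3, and the Control(M) libraries ran from 1.18 to 5.77 CPM. Aurora B (Aurkb; chromosome 11, 69045647 to 69051664, plus strand) corrects faulty attachments as the kinase of the chromosomal passenger complex. In cohort D, Aurkb lay at 0.485 to 9.79 CPM with a median of 2.93 in Ccnd1-Ikk2ca, 3.503, 3.27, 1.91 and 1.04 in Ikk2ca(D), 3.52, 5.88, 6.63 and 1.29 in Ccnd1 and 6.27, 6.97, 5.65 and 12.1 in Control(D). In cohort M, Aurkb lay at 0.598 to 4.70 CPM with a median of 3.45 in MMSET-Ikk2ca, 1.27, 0.683, 3.74 and 5.26 in Ikk2ca(M), 5.02, 4.57, 3.82 and 1.85 in MMSET and 6.80, 0.451, 12.8 and 3.19 in Control(M). Ikk2ca(D) lay wholly below Control(D), and Ccnd1-Ikk2ca split into 3 libraries at 4.96 CPM or more and 3 under 1 CPM. Aurka ran from 0.715 CPM in MMSET 4 to 12.003 CPM in MMSET 3.

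Of the checkpoint genes, Bub1b (chromosome 2, 118598211 to 118641591, plus strand) encodes BubR1, which binds and restrains Cdc20. In cohort D, Bub1b lay at 17.6 to 32.6 CPM with a median of 22.1 in Ccnd1-Ikk2ca, 29.5, 14.2, 19.1 and 20.2 in Ikk2ca(D), 15.7, 33.8, 18.4 and 14.5 in Ccnd1 and 12.1, 21.1, 18.8 and 22.2 in Control(D). In cohort M, Bub1b lay at 11.5 to 45.2 CPM with a median of 32.6 in MMSET-Ikk2ca, 16.1, 15.1, 17.9 and 22.6 in Ikk2ca(M), 39.5, 12.8, 24.2 and 14.7 in MMSET and 24.6, 11.1, 20.5 and 9.40 in Control(M). It was detected with at least 9.40 CPM in every library and all groups overlapped. Mad2l1, whose product also binds Cdc20, ran from 2.43 CPM in MMSET 1 to 23.9 CPM in MMSET 3. Bub1 and Ttk, the kinases that set the checkpoint signal at kinetochores, were at or near the limit of 3 reads in 9 and 7 libraries and reached 7.26 and 5.36 CPM in MMSET 3.

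At the step into anaphase, Cdc20 (chromosome 4, 118432901 to 118437352, minus strand) overlaps Elovl1 on the opposite strand. In cohort D, Cdc20 lay at 9.45 to 22.5 CPM with a median of 12.9 in Ccnd1-Ikk2ca, 9.74, 9.92, 3.32 and 4.72 in Ikk2ca(D), 10.6, 9.65, 15.4 and 17.2 in Ccnd1 and 19.9, 13.6, 8.22 and 26.2 in Control(D). In cohort M, Cdc20 lay at 0.788 to 17.5 CPM with a median of 13.4 in MMSET-Ikk2ca, 5.67, 7.63, 12.4 and 12.2 in Ikk2ca(M), 13.7, 15.5, 40.6 and 5.17 in MMSET and 11.3, 9.61, 15.9 and 5.91 in Control(M). Its Ikk2ca(D) values were low, yet Control(D) 3 at 8.22 CPM lay below 2 of them. Securin (Pttg1; chromosome 11, 43420250 to 43426251, minus strand) blocks the protease that cuts cohesin. In cohort D, Pttg1 lay at 9.44 to 20.8 CPM with a median of 16.2 in Ccnd1-Ikk2ca, 5.34, 7.17, 11.3 and 17.8 in Ikk2ca(D), 14.2, 10.98, 16.8 and 18.1 in Ccnd1 and 19.0, 11.1, 11.6 and 16.01 in Control(D). In cohort M, Pttg1 lay at 16.5 to 20.8 CPM with a median of 18.4 in MMSET-Ikk2ca, 13.0, 18.2, 13.9 and 14.3 in Ikk2ca(M), 10.4, 17.4, 17.2 and 18.9 in MMSET and 14.5, 18.4, 18.6 and 15.5 in Control(M). MMSET-Ikk2ca 4 was among the higher values of its group here, and MMSET 3 lay inside its group. Across 36 libraries Pttg1 ran from 5.34 to 20.8 CPM, while Ube2c, the ubiquitin-conjugating enzyme of the anaphase-promoting complex, ran from 0.365 to 42.9 CPM.

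Of the centromere and kinetochore genes, Cenpf (chromosome 1, 189640606 to 189688086, minus strand) encodes a large kinetochore protein. In cohort D, Cenpf lay at 2.09 to 5.15 CPM with a median of 3.12 in Ccnd1-Ikk2ca, 2.38, 2.003, 1.43 and 0.995 in Ikk2ca(D), 3.56, 4.59, 4.93 and 2.83 in Ccnd1 and 1.56, 2.24, 0.237 and 1.88 in Control(D). In cohort M, Cenpf lay at 0.0292 to 5.98 CPM with a median of 2.80 in MMSET-Ikk2ca, 0.407, 1.51, 1.93 and 1.17 in Ikk2ca(M), 3.57, 4.37, 15.4 and 0.514 in MMSET and 0.761, 0.837, 6.83 and 0.174 in Control(M). All 4 Ccnd1 libraries lay above all 4 Control(D) libraries, and Control(M) 3 and MMSET 3 stood far above the rest of their groups. Cenpa, the histone H3 variant of centromeres, ran from 0 CPM in MMSET 4 to 10.8 CPM in Control(D) 4. Ndc80 and Nuf2 form an outer kinetochore dimer that binds microtubules, yet their highest libraries differed: Ccnd1-Ikk2ca 5 at 8.48 CPM for Ndc80 and MMSET 3 at 14.1 CPM for Nuf2. Cenpe ran from 0 CPM in 3 libraries to 6.14 CPM in MMSET 3.

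Of the kinesins, Kif11 (chromosome 19, 37376403 to 37421859, plus strand) pushes the spindle poles apart. In cohort D, Kif11 lay at 3.18 to 10.8 CPM with a median of 8.50 in Ccnd1-Ikk2ca, 13.1, 2.48, 6.05 and 0.649 in Ikk2ca(D), 7.23, 6.04, 3.40 and 5.46 in Ccnd1 and 4.02, 7.82, 2.43 and 7.91 in Control(D). In cohort M, Kif11 lay at 0 to 16.8 CPM with a median of 8.34 in MMSET-Ikk2ca, 5.38, 2.93, 0.267 and 6.89 in Ikk2ca(M), 7.06, 14.1, 25.5 and 2.38 in MMSET and 4.38, 1.22, 12.2 and 6.52 in Control(M). MMSET-Ikk2ca 4 had no read while the other 5 lay between 6.27 and 16.8 CPM, and Ikk2ca(M) 3 stood at 0.267 CPM. Kif20a and Kif23 act at the midzone in cytokinesis, and Kif2c takes microtubules apart at centromeres. Kif20a reached 8.004 CPM in Ccnd1-Ikk2ca 2, Kif23 7.41 CPM in MMSET 3 and Kif2c 4.32 CPM in Ccnd1-Ikk2ca 1, and each had 0 reads in at least 1 library. Kif4, which shapes chromosome arms, ran from 0 CPM in Control(M) 3 to 9.70 CPM in MMSET 3. In Ikk2ca(D) it lay at 7.19, 0.0747, 0.210 and 0.0108 CPM, so that 1 library held nearly all of the group's signal. Kif20a and Kif4 are among 9 members that overlap a coding gene on the opposite strand, as do Ccna2, Cdc20, Ube2c, Nusap1, Prc1, Ncapg and Cdca8. Without strand information the reads of all 9 are uncertain.

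Of the spindle and midzone genes, Tpx2 ran from 0.523 CPM in Control(M) 4 to 23.3 CPM in MMSET 3, and Hmmr, a spindle pole protein, from 0.0324 CPM in Ikk2ca(D) 4 to 19.9 CPM in MMSET 3. Nusap1, which bundles spindle microtubules, ran from 0.0146 CPM in MMSET-Ikk2ca 4 to 13.6 CPM in MMSET 3. Prc1, the bundler of the midzone, ran from 1.18 CPM in MMSET-Ikk2ca 4 to 21.1 CPM in MMSET-Ikk2ca 3. So 1 group held both ends for Prc1.

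Of the chromosome genes, Top2a (chromosome 11, 98992943 to 99024189, minus strand) untangles sister DNA. In cohort D, Top2a lay at 10.8 to 32.8 CPM with a median of 18.2 in Ccnd1-Ikk2ca, 31.1, 18.7, 5.54 and 2.67 in Ikk2ca(D), 18.4, 19.6, 13.7 and 15.5 in Ccnd1 and 9.90, 13.4, 10.7 and 24.6 in Control(D). In cohort M, Top2a lay at 0 to 31.8 CPM with a median of 23.1 in MMSET-Ikk2ca, 7.31, 3.62, 9.19 and 9.10 in Ikk2ca(M), 13.8, 18.7, 55.3 and 6.60 in MMSET and 13.2, 16.8, 31.5 and 10.3 in Control(M). Ikk2ca(M) lay wholly below Control(M) and below 5 of the 6 MMSET-Ikk2ca libraries. Mki67 (chromosome 7, 135689784 to 135716361, minus strand) encodes Ki-67, which coats mitotic chromosomes. In cohort D, Mki67 lay at 18.001 to 46.3 CPM with a median of 22.5 in Ccnd1-Ikk2ca, 38.2, 41.5, 6.40 and 14.0 in Ikk2ca(D), 21.2, 30.1, 17.6 and 17.0 in Ccnd1 and 20.0, 40.2, 17.6 and 19.4 in Control(D). In cohort M, Mki67 lay at 0.963 to 32.1 CPM with a median of 26.6 in MMSET-Ikk2ca, 18.2, 17.5, 19.5 and 29.3 in Ikk2ca(M), 9.52, 14.95, 63.4 and 6.71 in MMSET and 22.01, 11.9, 20.7 and 12.8 in Control(M). Ikk2ca(D) held its values in 2 pairs, at 38.2 CPM or more and at 14.0 CPM or less. Survivin (Birc5; chromosome 11, 117849251 to 117855743, plus strand) is a subunit of the passenger complex. In cohort D, Birc5 lay at 5.69 to 15.1 CPM with a median of 7.34 in Ccnd1-Ikk2ca, 6.37, 5.15, 2.06 and 2.96 in Ikk2ca(D), 5.06, 6.60, 7.48 and 8.18 in Ccnd1 and 2.53, 4.99, 7.02 and 9.51 in Control(D). In cohort M, Birc5 lay at 0.453 to 14.9 CPM with a median of 8.52 in MMSET-Ikk2ca, 2.41, 3.68, 5.13 and 8.26 in Ikk2ca(M), 6.28, 2.61, 27.9 and 3.80 in MMSET and 5.82, 1.67, 10.99 and 3.35 in Control(M). MMSET 3 stood above all 35 other libraries, and the groups overlapped in both cohorts. Cdca8, which binds Birc5 in that complex, ran from 0 CPM in MMSET 4 to 12.6 CPM in MMSET 3, and the condensin subunit Ncapg from 0.0363 CPM in Ccnd1 2 to 8.27 CPM in Control(M) 3. Cdca3, which triggers destruction of the mitosis inhibitor Wee1, ran from 1.91 CPM in Ikk2ca(D) 3 to 22.2 CPM in MMSET 3.

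Other cell cycle lists gave a background to the mitosis genes. Of 58 further mitosis genes, 1 passed in Ccnd1-Ikk2ca against Control(D), where 11.1% of all genes did: Spc24, a kinetochore partner of Ndc80 (log2 fold change 1.39, SE 0.319, adjusted p = 0.00891; adjusted p = 0.0828 in 1 fit of all 36 libraries), and 0 passed in the other 9 group comparisons. Their median log2 fold changes stood beside those of the 34 members as follows, and the difference between the lists was not tested. In cohort D they were 0.54 beside 0.29 in Ccnd1-Ikk2ca, -0.41 beside -0.62 in Ikk2ca(D) and 0.15 beside 0.04 in Ccnd1, each against Control(D), and in Ccnd1-Ikk2ca 0.71 beside 0.76 against Ikk2ca(D) and 0.38 beside 0.16 against Ccnd1. In cohort M they were 0.54 beside 0.42 in MMSET-Ikk2ca, -0.19 beside -0.18 in Ikk2ca(M) and 0.81 beside 0.65 in MMSET, each against Control(M), and in MMSET-Ikk2ca 0.85 beside 0.81 against Ikk2ca(M) and -0.01 beside -0.26 against MMSET. Of 36 DNA replication genes, 4 rose in Ccnd1-Ikk2ca against Control(D), where 11.1% of all genes were called, with thymidine kinase Tk1 at 0.79 (adjusted p = 0.0396) and Gins4, Cdc45 and Mcm5 at 0.76, 1.28 and 1.55, and 0 fell. Mcm5 did not pass in any of 10 fits that left out 1 library, Tk1 and Gins4 passed in 2 and Cdc45 in 4. In MMSET-Ikk2ca against Control(M) 2 of the 36 rose, where 6.91% of all genes were called, Fen1 at 0.66 and Tk1 at 1.10 (adjusted p = 0.0303 and 0.0354), each kept in 3 of 10 such fits. Tk1 also rose in Ccnd1-Ikk2ca against Ccnd1, where 6.2% of all genes were called (1.323, adjusted p = 0.00334), in all 10 such fits. Of 12 genes of the DREAM and MuvB complexes and their partners, which turn mitosis genes off and on, 1 fell in Ccnd1-Ikk2ca against Control(D), E2f4 (-0.79, adjusted p = 0.0492, kept in 3 of 10 such fits), beside the same 11.1% of all genes.

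Of 7 CDK inhibitors, Cdkn1a (p21, which blocks cyclin-dependent kinases) was called higher in all 4 groups with Ikk2ca against their control, where 11.1% of all genes were called in Ccnd1-Ikk2ca, 0.437% in Ikk2ca(D), 6.91% in MMSET-Ikk2ca and 0.649% in Ikk2ca(M). It lay at 27.9 to 58.2 CPM in Ccnd1-Ikk2ca and 13.9 to 53.9 CPM in Ikk2ca(D), against 2.03 to 3.29 CPM in Control(D), and at 45.8 to 75.7 CPM in MMSET-Ikk2ca and 12.1 to 50.6 CPM in Ikk2ca(M), against 0.950 to 6.23 CPM in Control(M). In Ikk2ca(D), Cdkn1a at 53.9, 36.8, 18.4 and 13.9 CPM stood beside summed mitosis levels of 295, 183, 107 and 105 CPM. In Ikk2ca(M), Cdkn1a at 38.9, 25.4, 50.6 and 12.1 CPM stood beside 129.6, 128, 168 and 225 CPM. MMSET-Ikk2ca 4 had a summed mitosis level of 56.2 CPM with Cdkn1a at 45.8 CPM. A relation between Cdkn1a and the mitosis levels was not tested. Cdkn2c, the CDK4 and CDK6 inhibitor p18, rose in Ccnd1-Ikk2ca (1.03, adjusted p = 0.0147) and fell in MMSET-Ikk2ca against their controls (-2.03, adjusted p = 0.000694), and the difference between these effects passed (-3.06, adjusted p = 6.47e-05). Of 14 G1 and S cyclins, CDKs and E2F genes, Ccnd1 rose in both groups that carry it against Control(D) and in Ccnd1-Ikk2ca against Ikk2ca(D). Ccnd1 is the gene of the transgene, so these calls follow from the design. Ccnd2 rose in Ccnd1-Ikk2ca against Control(D) and in MMSET and Ikk2ca(M) against Control(M). Cdk6 fell in MMSET-Ikk2ca against Control(M) and against MMSET. The interaction of MMSET and Ikk2ca was called for Ccnd2 (-2.40, adjusted p = 0.0250), where 0.0973% of all genes passed. This call was kept in 11 of 18 fits that left out 1 library. With 1 library left out, Ccnd2 passed in 1 of 8 fits for MMSET and in 6 of 8 for Ikk2ca(M), and Cdk6 against MMSET in 2 of 10. MMSET 3 had the highest CPM sums of both mitosis and DNA replication genes. MMSET-Ikk2ca 4 had the lowest mitosis sum and, at 238 CPM, the second lowest DNA replication sum after Control(M) 2 at 221 CPM.

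**Figure D5:**
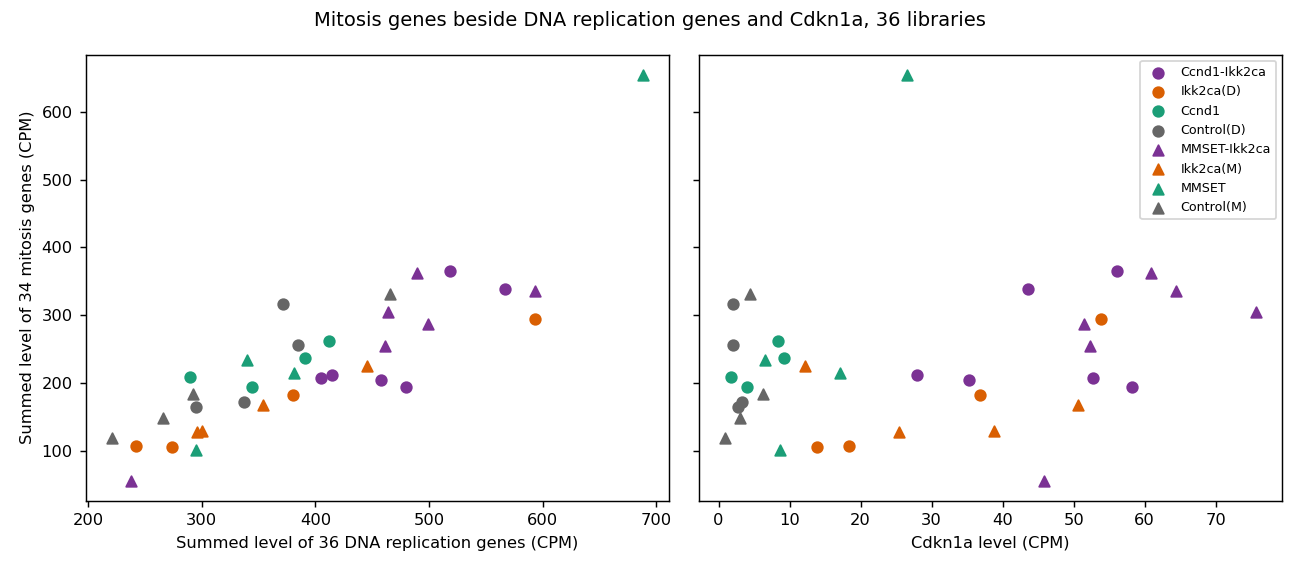
Summed level of the 34 mitosis genes (y axis, CPM) against the summed level of 36 DNA replication genes (left, CPM) and the level of Cdkn1a (right, CPM) in 36 libraries; circles are cohort D, triangles cohort M, colours the groups. MMSET 3 lies at the top right of the left panel, and MMSET-Ikk2ca 4 lies lowest, with a Cdkn1a level of 45.8 CPM.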

How the data were processed

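RNA of 36 libraries of mouse plasma cells was quantified by the authors with Salmon 1.3.0 on GRCm38, after bcl2fastq 2.20.0.422, per the submitters' processing notes, which also name DESeq2 1.32.0. Per the file headers, each deposited table holds the authors' estimated counts, TPM, and transcript lengths. The labels' protocols describe poly(A)-primed, template-switched cDNA that was amplified, with no molecular identifiers, so floors cover counting error only. Estimated counts were summed to 54203 genes with GENCODE annotation of GRCm38 (139960 of 140825 transcripts matched) and rounded. Reads carried no strand information. Tests used edgeR 4.0.16 (TMM, filterByExpr, robust quasi-likelihood) in R 4.3.3 on the 18 libraries of a cohort, or on 36 for the difference between cohorts, with Benjamini-Hochberg adjustment over all genes tested; SE is the absolute log2 fold change over the square root of F. All tests were two-sided. Alternatives were DESeq2 1.42.0, its size factors, no filter on low counts, totals without immunoglobulin genes, other sets of libraries and a replicate block. The edgeR script was tested on simulated data. The 34 members and the other lists were chosen with earlier results of these data known. Values in every library are given for 12 members set by role, and others by range; further genes of the lists are named where called, at most 4 per list. Python 3.11.15 was used for sums and plots.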

Additional observations from a re-analysis of the deposited data

Results flagged for a closer look

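Each of the 12 members set by role and the summed level of the 34 was checked in 8 groups for a library that stands far from the rest of its group, 104 checks in all. Of these, 11 passed Dixon's 95% criterion. Chance flags about 1 group in 20 where values are normally distributed, but the criterion was applied to untransformed CPM. The checks are also not independent, because the sum contains the 12 members and several flags come from the same library. MMSET-Ikk2ca 4 was far below its group for the summed level (56.2 CPM, against 254.8 to 362 CPM in the other 5), for Cdk1 (0.861 CPM, against 11.4 to 15.8) and for Mki67 (0.963 CPM, against 20.5 to 32.1). MMSET 3 was far above its group for Birc5 (27.9 CPM, against 2.61 to 6.28) and Mki67 (63.4 CPM, against 6.71 to 14.95). Control(M) 3 was far above its group for Cdk1 (15.3 CPM, against 2.04 to 3.04), Ccna2 (18.4 CPM, against 2.32 to 5.07) and Cenpf (6.83 CPM, against 0.174 to 0.837). B cell markers summed to 684 CPM in Control(M) 3, the highest of the 36 libraries, and their part in these values was not tested. Ccna2 was also far above its group in Ccnd1-Ikk2ca 2 (16.2 CPM, against 3.93 to 8.42). Mki67 stood out in Control(D) 2 (40.2 CPM, against 17.6 to 20.02) and in Ikk2ca(M) 4 (29.3 CPM, against 17.5 to 19.5).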

How the results depend on the processing

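Counts of called members were recomputed under 242 settings over 13 comparisons, and 238 gave 0, as reported. The 4 that did not gave 1 each: DESeq2 (Cdc20) and the fit without Ikk2ca(D) replicate 1 (Kif4), both in Ikk2ca(D) against Control(D), and the fits without both MMSET 3 and MMSET-Ikk2ca 4, chosen after seeing the data, in MMSET-Ikk2ca against Ikk2ca(M) (Top2a) and against MMSET (Mki67, at 1.39 in place of -0.05); the cause was not tested. Leaving out 1 library at a time gave 0 to 1 in Ikk2ca(D) against Control(D) and 0 in every other comparison. The replicate block, on replicates 1 to 4, gave 0 in all 13. Same-numbered libraries correlated above 0.1 in 2 of 24 pairs in cohort D and 3 of 24 in cohort M, and 9 and 10 of 16 libraries correlated best with their own number, a hint from the data and not the design, so the numbers were not taken as pairing. Member medians kept their sign under every setting in 8 of 13 comparisons. They changed sign in Ccnd1 against Control(D) (-0.13 to 0.28), MMSET against Control(M) (-0.13 to 1.17), Ikk2ca(M) against Control(M) (-0.46 to 0.24), MMSET-Ikk2ca against MMSET (-0.54 to 0.85) and the interaction of MMSET and Ikk2ca (-0.45 to 1.05). Of single member tests, 8223 kept their side of the threshold. Group means of the summed member level stayed within 1 SD in 44 recomputed values and moved in 16, the TPM sums and the totals without immunoglobulin genes in each of the 8 groups, which are other scales by construction. By TPM the mean was 74.0 ± 34.4 in MMSET-Ikk2ca and 51.1 ± 35.3 in MMSET, while by CPM MMSET had the higher mean. Levels of 0 to 3 reads limit Bub1, Kif2c and Ttk most. Called genes of the other lists kept their side of the threshold 410 times and lost it 110 times.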
